A study of Drosophila melanogaster with 2 samples.

Results

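The histone genes of Drosophila melanogaster were followed in HP1c mutant larvae of the third instar, which carried the allele f04929 on both chromosomes. Members were chosen by gene symbol: the copies named for histones H1, H2A, H2B, H3 and H4, and the single genes His2Av, His3.3A, His3.3B, His4r and BigH1. The Ensembl annotation of the BDGP6 assembly holds 116 such genes, 111 copies and 5 single genes. Of these, 36 genes with 45 transcripts are listed in the deposited tables, among 14001 matched genes and 30119 transcripts in all. The rule used names and no measured value, but it was chosen with earlier results of these data known.

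The study holds 1 group of 2 libraries of whole larvae, numbered as replicates 1 and 2, all of genotype HP1c f04929/HP1c f04929 and grown on one food at one temperature. HP1c encodes a heterochromatin protein 1 paralog that binds methylated histone H3, and it stood at 0.842 and 1.08 TPM (reads per transcript length, rescaled to one fixed total per library) in replicates 1 and 2, from 25 and 42 reads. The series was designed around a pair of genotypes. Larvae of the other genotype were not analysed here, and no effect of the allele was computed. The labels do not tell whether separate cultures were used, and the difference between the libraries may be in part technical. They held 39745145 and 45177298 estimated reads, of which entries named for rRNA took 12.1% and 2.55%. In whole larvae, fewer cells of a type and less RNA per cell cannot be told apart.

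Histones package DNA into nucleosomes, with a core of H2A, H2B, H3 and H4 and a linker histone, H1, on the DNA between cores. In the fly, the replication-dependent genes for these proteins sit in a tandem array and are transcribed in S phase. Their mRNAs end in a stem-loop in place of a poly(A) tail. Replacement variants are encoded by single genes outside the array, carry introns, make polyadenylated mRNA and are used throughout the cell cycle and in cells that no longer divide. The sources used here do not give how RNA was selected before the libraries were made, and the recovery of array mRNA relative to polyadenylated mRNA is unknown. This bears on every comparison between variants and array copies below.

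The annotation separated these classes in the same way. All 111 array copies have 1 exon and 1 transcript each. The variants have between 2 and 5 exons, and the transcripts of each variant gene share 1 coding part. His3.3A and His3.3B have 136 codons, as do all H3 copies, and His4r has 103, as do all H4 copies. His2Av has 141 codons against 124 in the H2A copies, and BigH1 has 353 against 256 in the H1 copies. Annotated sequence after the stop codon runs to 1589 bases in the longest His3.3B transcript and to at most 177 bases in any array copy.

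Transcripts of 4 replacement variants were abundant. His4r, which encodes the same H4 protein as the array from a polyadenylated mRNA, stood at 800.3 and 842 TPM in replicates 1 and 2. Its mean of 821 ± 29.5 TPM (SD, n = 2) placed it 193rd of the 14001 genes, at the 98.2nd percentile of the 10900 genes with 1 TPM or more in both libraries. The gene (FBgn0013981) lies on 3R at 14625755 to 14626614, plus strand. His4r was the highest of the histone genes in each library.

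The pair of H3.3 genes came next and were unequal. H3.3 is the H3 variant put into chromatin outside replication, and His3.3A and His3.3B are known to encode the same protein. His3.3B (FBgn0004828, X at 9152523 to 9156669, minus strand) stood at 513 and 554 TPM in replicates 1 and 2, a mean of 534 ± 28.8 TPM, at rank 260. His3.3A (FBgn0014857, 2L at 5055058 to 5056149, plus strand) stood at 197 and 204 TPM, a mean of 201 ± 4.92 TPM, at rank 552. His3.3B therefore gave 72.2% and 73.0% of the H3.3 transcripts of replicates 1 and 2. Exons of His3.3A overlap Nepl3 on the opposite strand over 168 bases, and strandedness is not stated. Nepl3 stood at 15.2 and 15.1 TPM.

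His2Av encodes the only H2A variant of the fly, with the roles that H2A.Z and H2A.X have in mammals. It stood at 219 and 230 TPM in replicates 1 and 2, a mean of 224 ± 8.38 TPM, at rank 503. The gene (FBgn0001197) lies on 3R at 26866929 to 26869220, plus strand. His2Av lay just above His3.3A, and the values of these neighbours in the order did not overlap between libraries.

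BigH1, a linker histone known from the fly germline and early embryo, was the one single gene at a low level. It stood at 3.44 TPM (95% Poisson interval 2.89 to 4.07) in replicate 1, from 138 reads, and at 3.90 TPM (3.39 to 4.47) in replicate 2, from 206 reads. That is the 16.1st percentile of detected genes. The gene (FBgn0038252) lies on 3R at 14663450 to 14664822, plus strand. Of 5 germline marker genes, vas, nanos, bam, aub and zpg, 1 reached 1 TPM in both libraries. Their summed level was 3.75 and 3.92 TPM in replicates 1 and 2, led by vas, a germline RNA helicase, at 2.08 and 2.02 TPM. Genes for spermatid chromatin, also of the germline, stood higher, from Prtl99C at 8.19 and 8.06 TPM to Mst77F at 56.5 and 58.5 TPM. The part of germline cells in the BigH1 level was not tested.

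Copies of the array were low by comparison, even when all listed copies of a type were summed. H2B was the highest type, with 307 reads in replicate 1, or 19.3 TPM (95% interval 17.2 to 21.6), and 419 in replicate 2, or 20.2 TPM (18.3 to 22.2). H2A followed at 13.9 TPM (11.9 to 16.2) and 13.6 TPM (11.9 to 15.6), from 171 and 218 reads. These types kept apart in both libraries, with intervals that did not overlap.

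The remaining types were lower. H4 stood at 7.28 TPM (5.67 to 9.22) in replicate 1 and 4.09 TPM (3.03 to 5.39) in replicate 2, from 69 and 50 reads. H1, whose copies have the longest mRNA of the array, stood at 5.20 TPM (4.42 to 6.06) and 3.71 TPM (3.14 to 4.34), from 161 and 151 reads. H4 and H1 did not differ beyond their intervals in either library. H3 was the lowest type, at 3.10 TPM (2.23 to 4.18) in replicate 1 and 1.19 TPM (0.737 to 1.82) in replicate 2, from 42 and 21 reads.

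**Figure D1:**
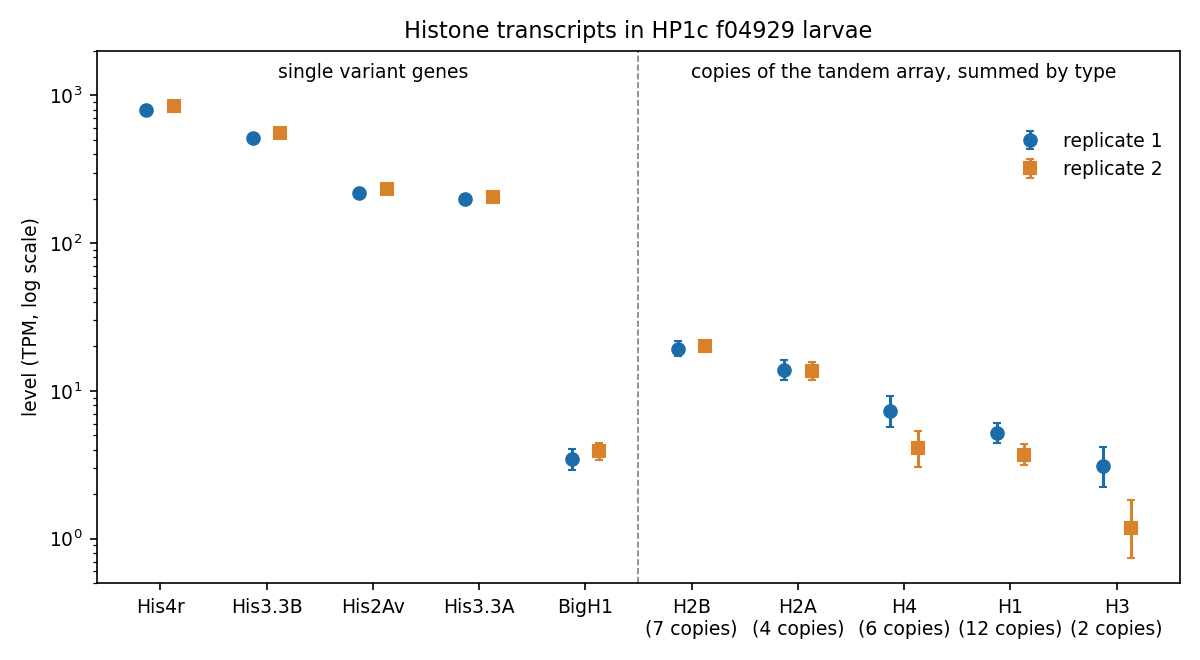
Level of each histone gene or type in TPM on a log axis, for replicate 1 (circles) and replicate 2 (squares), with single variant genes on the left and listed array copies summed by type on the right; bars are 95% Poisson intervals. His4r, His3.3B, His2Av and His3.3A lie between 197 and 842 TPM, the 5 array types between 1.19 and 20.2 TPM, and BigH1 at 3.44 and 3.90 TPM.

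The proteins of the core are built into nucleosomes in equal numbers, but the summed levels of the array types were unequal. H2B made up 39.6% and 47.2% of the TPM of all listed copies in replicates 1 and 2, and H2A 28.5% and 31.8%. H4 made up 14.9% and 9.55%, H1 10.6% and 8.66%, and H3 6.34% and 2.78%. H2B exceeded H4 by 2.65-fold in replicate 1 and 4.94-fold in replicate 2. These sums cover 7 H2B copies, 4 H2A copies, 6 H4 copies, 12 H1 copies and 2 H3 copies, which are the listed ones.

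All 31 listed copies together gave 48.8 and 42.8 TPM in replicates 1 and 2, from 750 and 859 reads. The 4 abundant variants together gave 1729 and 1831 TPM, from 54107 and 74224 reads. In reads, the variants took 0.136% and 0.164% of each library and the array copies 0.00189% and 0.00190%.

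In the H2A, H3 and H4 classes, the variant genes therefore supplied most of the measured transcripts. His3.3A and His3.3B made up 99.6% and 99.8% of H3-class TPM in replicates 1 and 2. His4r made up 99.1% and 99.5% of the H4 class, and His2Av 94.0% and 94.4% of the H2A class. The excess of variant over array transcripts was 15.7-fold and 16.9-fold for His2Av over H2A, and 110-fold and 206-fold for His4r over H4. For H3.3 over H3 it was 230-fold and 637-fold, with a denominator of 42 and 21 reads. The H3.3 genes themselves summed to 711 and 758 TPM. These shares and folds count listed array copies alone. They are too high if reads of copies without an entry were left uncounted.

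The linker class differed from the core classes in this respect. BigH1 made up 39.9% of H1-class TPM in replicate 1 and 51.3% in replicate 2, a mean of 45.6% ± 8.06 (SD, n = 2). The intervals of BigH1 and of the H1 copies overlapped in replicate 2 and did not in replicate 1, and their order was opposite in the libraries. BigH1 is a single gene of a specialised cell type, and H1 is the sum of 12 listed copies.

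The array itself lies on 2L at 21416953 to 21541681, a stretch of 125 kb. It holds 23 H1, 23 H2B, 23 H3, 22 H4 and 20 H2A copies in the annotation. Repeat units were counted from each H1 copy, which gives 23. The distance from an H1 start to the next had a median of 5045 bases, the shortest 4843 and the longest 14041. That longest distance takes in a stretch from 21440715 to 21451052 without an annotated copy of the 5 types. Listed copies were 31 of the 111 (27.9%): 12 of 23 for H1, 7 of 23 for H2B, 6 of 22 for H4, 4 of 20 for H2A and 2 of 23 for H3. Annotated and listed lengths were equal for all 45 histone transcripts. The sources used here do not tell whether reads from copies without an entry were given to listed copies or left uncounted. A type sum may therefore hold reads of copies that carry other names, or it may fall short of the level of its type.

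Copies without an entry lay throughout the array. In 19 of the 23 units at least 1 copy was listed, and in 12 units at least 1 listed copy had reads. The listed H4 copies include both annotated forms, with 412 or 413 bases and with 526 or 528 bases. Both longer H4 entries, His4:CG33871 and His4:CG33869, whose annotation ends at the stop codon, had 0 reads in both libraries.

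Within each type, most reads of a library were assigned to 1 copy. His2A:CG33835 (unit 13) held 95.5% and 79.1% of H2A reads in replicates 1 and 2, with 163 and 172 reads. His4:CG31611 (unit 2) held 90.9% and 93.9% of H4 reads, with 62.7 and 47.0 reads. His1:CG33813 (unit 6) held 71.7% and 57.2% of H1 reads, with 116 and 86.6 reads. In these 3 types, the same copy led in both libraries.

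The leading copy changed for H2B and H3. For H2B it was His2B:CG33872 in replicate 1, with 289 reads against 0 in replicate 2. In replicate 2 it was His2B:CG33870 in the next unit, with 342 reads against 0 in replicate 1. Against a floor of 3 reads per library, this is at least 125-fold higher and at least 88.1-fold lower in replicate 1. Both copies have the same annotated length of 595 bases, and reads are shared between similar copies. Whether the folds come from how reads were assigned was not tested, and a change of either gene cannot be read from them. Summed H2B was 19.3 and 20.2 TPM in replicates 1 and 2. No other copy had 0 reads in one library and 100 or more in the other, a pattern found in 0.1% of all genes. For H3, His3:CG33821 had 31.2 reads against 0, and His3:CG33806 had 10.8 against 21.0.

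The 5 leading copies of a library lay in 5 different repeat units, numbers 2, 6, 8, 13 and 21 in replicate 1 and numbers 2, 3, 6, 13 and 22 in replicate 2. Of the 31 listed copies, 15 had 0 reads in both libraries, 8 had reads in both and 8 in one alone, 6 of these in replicate 1. Of the 16 copies with reads, 8 thus had them in one library alone, against 3.55% of all genes with reads. The lowest copies were at 0 TPM in both libraries in 4 of the 5 types: 8 H1 copies, 3 H4 copies, 2 H2A copies and 2 H2B copies. Of 31 copies, 3 reached 1 TPM in both libraries, against 77.9% of all genes.

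**Figure D2:**
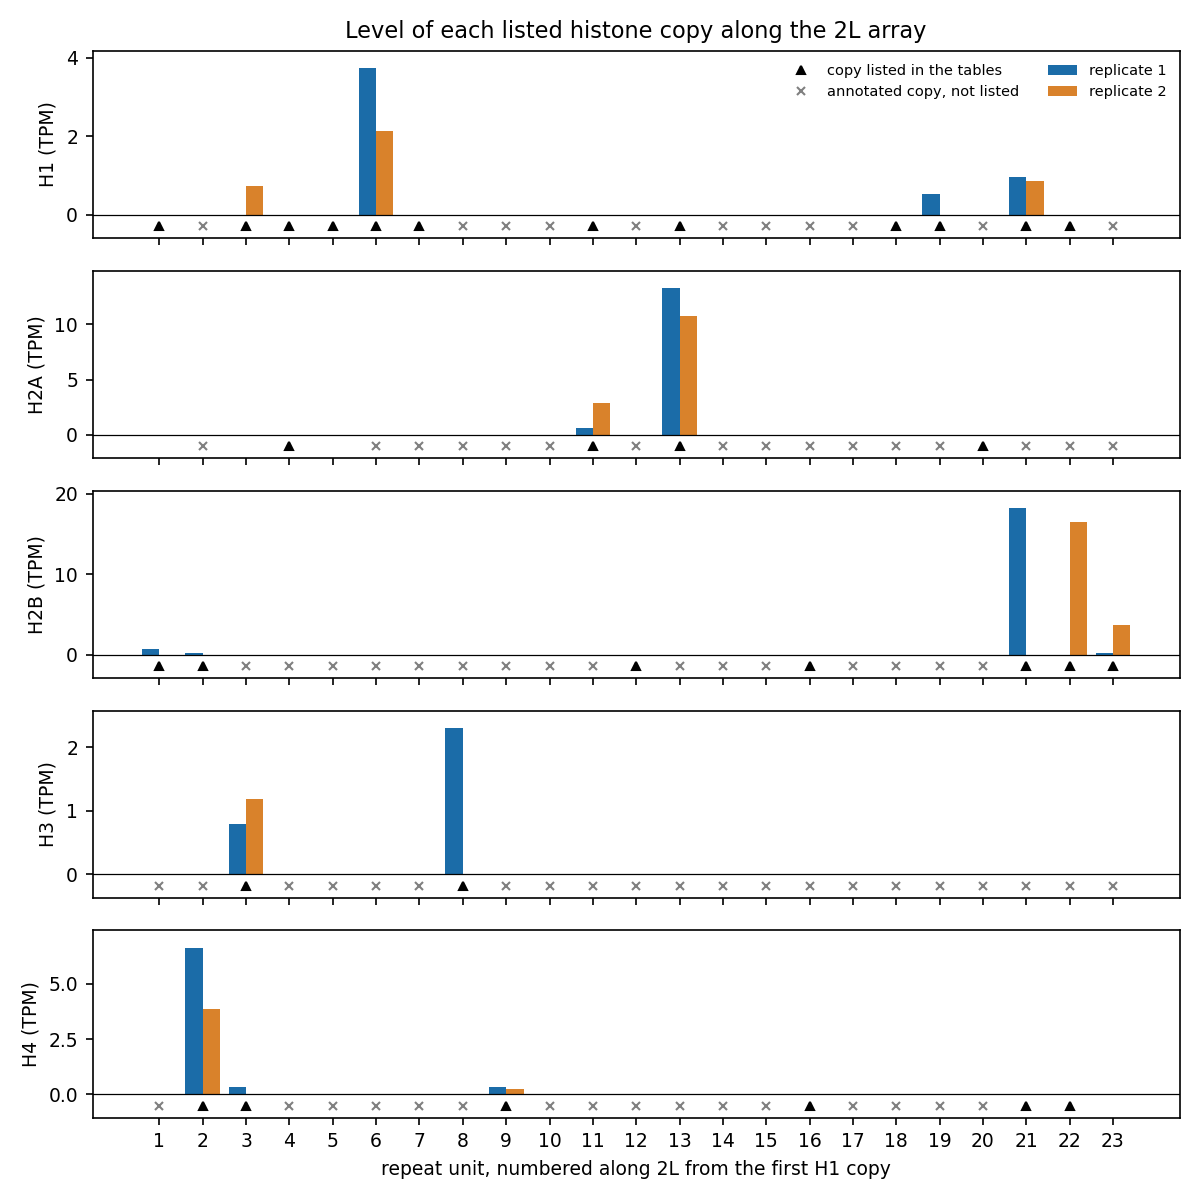
Level in TPM (vertical axis, linear) of each listed copy of H1, H2A, H2B, H3 and H4 in replicate 1 and replicate 2, by repeat unit along the 2L array (horizontal axis); triangles mark listed copies and crosses annotated copies with no entry. A single bar pair dominates H1, H2A and H4, while the H2B level sits in unit 21 in replicate 1 and unit 22 in replicate 2.

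Histone pseudogenes on 2L were barely measured. Of 8 annotated histone pseudogenes, 6 are listed, 4 of them with 0 reads in both libraries. None reached 1 TPM, and the highest value was 0.817 TPM for His-Psi:CR31615 in replicate 2, from 6.31 reads.

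The replicates were then compared, to see how far histone levels varied within the mutant group. Ratios are replicate 1 over replicate 2, from reads scaled with TMM (trimmed mean of M values), with exact Clopper-Pearson intervals for counting error alone. A gene was called apart when it was 2-fold or more higher in either library, its interval excluded 1 and its mean reached 10 reads. With 2 libraries of one group there is no test over replicates and no p-value.

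The 4 abundant variants varied little and alike. His2Av had a ratio of 0.939 (0.908 to 0.970), His3.3A of 0.956 (0.919 to 0.994), His3.3B of 0.944 (0.930 to 0.958) and His4r of 0.941 (0.919 to 0.963). These log2 ratios, from -0.09 to -0.07, lie between the quartiles of all genes at -0.19 and 0.19. BigH1 had a ratio of 0.867 (0.694 to 1.08). None of the 5 was called.

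Single array copies were compared in the same way. Of 11 copies with enough reads, 6 were called, against 5.42% of 12206 genes. For genes with a mean of 10 to 100 reads the share was 15.1%, for those with 100 to 1000 reads 3.81% and for single transcripts 19.5%. By direction, 2 copies were higher in replicate 1 (4.10% of all genes) and 4 lower in replicate 1 (1.32% of all genes). The 2 were His2B:CG33872 and His3:CG33821, and the 4 were His2B:CG33870, His2B:CG33868, His2A:CG33829 and His1:CG33804. Copies share reads within a type and are not independent.

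Summing over copies removed most of these differences. H2B, with 3 called copies, had a summed ratio of 0.948 (0.816 to 1.10), and H2A of 1.02 (0.826 to 1.25), or 0.892 with library size alone. H1 stood at 1.38-fold (1.10 to 1.73) and H4 at 1.79-fold (1.22 to 2.62) in replicate 1 over replicate 2, both short of 2-fold. H3 was the one type called, at 2.59-fold (1.499 to 4.60), from 42 and 21 reads. That call rests on His3:CG33821 alone, since the other listed H3 copy had a ratio of 0.678 (0.295 to 1.47). All listed copies together had a ratio of 1.13 (1.02 to 1.25), which turned to 0.992 with library size alone. With only the copies at a mean of at least 10 reads, that ratio was 1.08 (0.975 to 1.19). The ratio of H1 was then 1.24 (0.983 to 1.57), and that of H4 stayed above 1 at 1.74 (1.17 to 2.59).

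**Figure D3:**
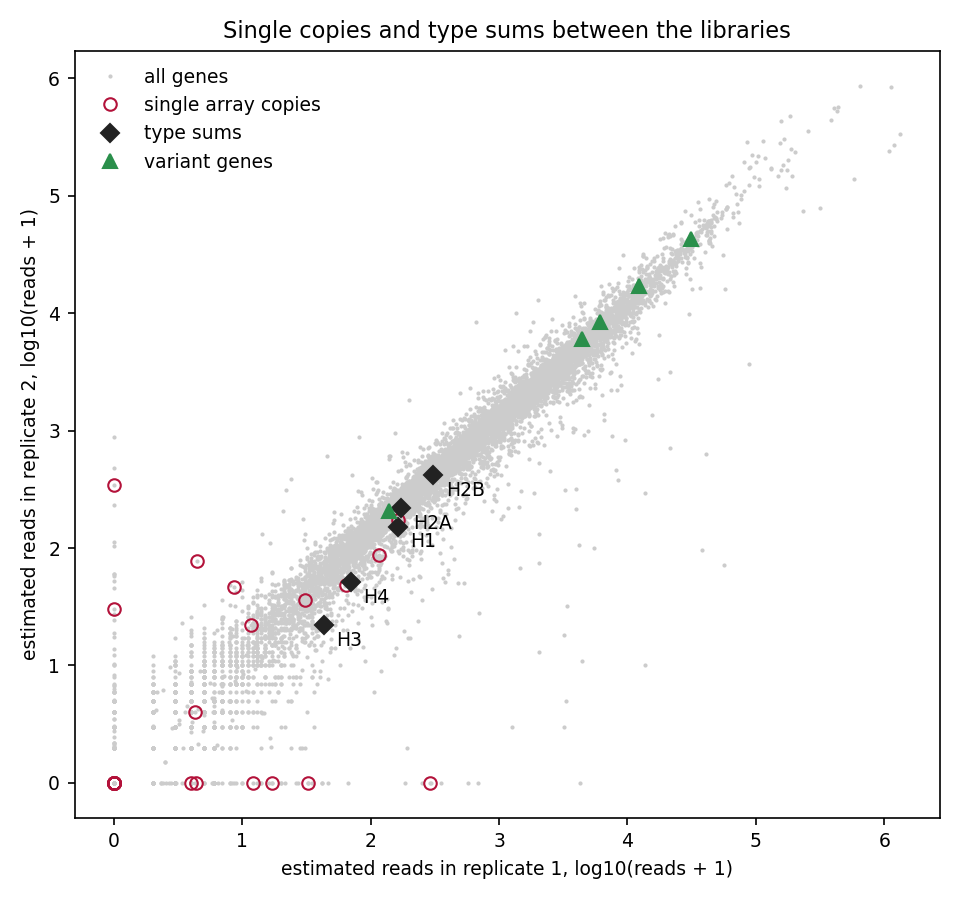
Estimated reads in replicate 1 (horizontal) and replicate 2 (vertical), as log10(reads + 1), for all genes (grey), single array copies (open circles), type sums (diamonds) and variant genes (triangles). Several single copies lie on an axis, with 0 reads in one library, while the sums and the variants lie in or near the band of all genes, with H3 (42 and 21 reads) farthest from it.

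The variant genes have several annotated transcripts, which share the coding part and differ in the untranslated ends. One transcript led in each gene, with 92.5% and 93.9% of His2Av, 95.5% and 95.5% of His3.3A and 91.2% and 91.6% of His4r in replicates 1 and 2. His3.3B was more evenly divided. Its form with the long end of 1589 bases after the stop codon held 65.1% and 56.1%, at 334 and 311 TPM. The form with the same start region of 114 bases and a short end of 874 bases held 28.5% and 38.2%, at 146 and 212 TPM.

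Between libraries, the short His3.3B form had a ratio of 0.677 (0.657 to 0.698), or 0.594 with library size alone. The long form had a ratio of 1.05 (1.04 to 1.07), which turned to 0.925 with library size alone. Neither was called, and of all 14 transcripts of the variant genes 1 was. This was the third transcript of His4r, at 23.8 and 11.8 TPM, with a ratio of 2.01 (1.69 to 2.39), for which the background among single transcripts is 19.5%. With library size alone its ratio was 1.76 and the call was lost. Shares between transcripts that overlap over most of their length are estimates, and their intervals do not hold the error of that estimate.

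**Figure D4:**
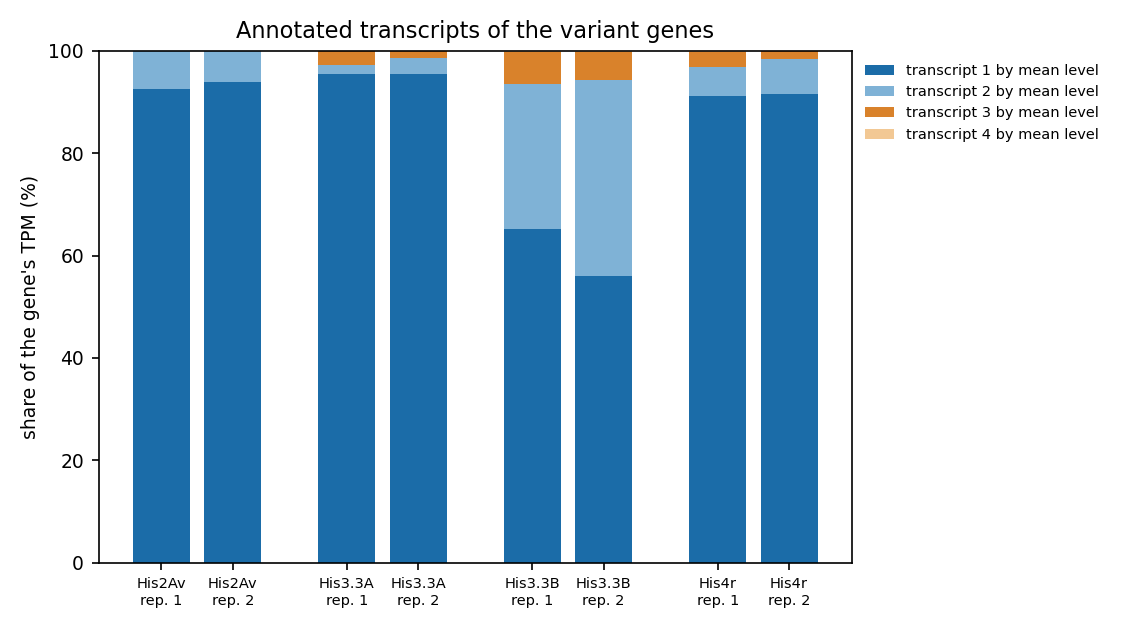
Share of each variant gene's TPM (percent, vertical axis) held by its annotated transcripts, ordered by mean level, in replicate 1 and replicate 2. The leading transcript holds 91.2% or more of His2Av, His3.3A and His4r, and 65.1% and 56.1% of His3.3B.

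Genes that process, carry and exchange histones were all expressed. The lists held 69 genes in 6 groups, and 69 of 69 reached 1 TPM in both libraries, against 77.9% of all genes. None was called apart between the libraries, against 5.42% of all genes. The lists were chosen with earlier results of these data known. Both counts therefore describe the listed genes only and are no test against all genes.

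Of 17 histone chaperone genes, which escort histones to and from DNA, the highest was Nlp at 299 and 283 TPM in replicates 1 and 2. Nap1, a chaperone of H2A and H2B, stood at 172 and 196 TPM, and Nph, like Nlp of the nucleoplasmin family, at 135 and 146 TPM. The lowest were Hira, which places H3.3 outside replication, at 5.75 and 5.79 TPM, and Caf1-105, a subunit of the factor that places H3 during replication, at 4.76 and 5.11 TPM. The median of the group was 27.7 TPM. The 4 genes for exchange of His2Av ranged from Tip60 at 12.8 and 14.0 TPM to dom, the remodelling ATPase, at 33.4 and 28.7 TPM. Arp6 stood at 22.2 and 21.8 TPM and YL-1 at 16.7 and 17.3 TPM.

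Of 13 genes for processing histone mRNA and related 3′ ends, Cbp20, of the cap-binding complex, stood highest at 33.9 and 43.1 TPM. Ars2 stood at 33.6 and 35.8 TPM and Cbp80, the partner of Cbp20, at 26.4 and 22.4 TPM. The lowest were Lsm10, of the U7 particle, at 3.70 and 5.74 TPM, and mxc, which organises the histone locus body, at 4.41 and 4.07 TPM. Slbp, which binds the stem-loop, stood at 14.5 and 17.5 TPM. It was named for its role and not by the rule for the others.

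Of 7 genes for transcription at the histone locus, Clamp, which binds repeats between the H3 and H4 genes, stood highest at 38.2 and 36.6 TPM. Myb stood at 28.2 and 30.6 TPM and wge at 18.3 and 16.2 TPM. The lowest were Hinfp at 6.95 and 7.22 TPM and abo at 5.94 and 5.85 TPM.

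Of 20 S-phase and cell cycle genes, PCNA, the sliding clamp of DNA polymerase, stood highest at 52.3 and 65.2 TPM. E2f1, a transcription factor for S-phase genes, stood at 41.7 and 50.9 TPM and geminin at 40.9 and 48.1 TPM, while PolA1, of DNA polymerase alpha, and Orc1, of the origin recognition complex, were the lowest, at 4.02 and 4.58 TPM and at 1.89 and 2.13 TPM. Of these 20 genes, 18 had log2 ratios below the median of all genes (-0.02), with a group median of -0.16 and a range of -0.35 to -0.01. Below that median also lay 7 of 8 genes for centromere and sperm chromatin, 10 of 13 for histone mRNA processing and 12 of 17 chaperone genes. For exchange of His2Av it was 2 of 4 genes, and for transcription at the histone locus 3 of 7. All array copies summed had a log2 ratio of 0.18, higher than in 74.1% of genes. By type, the log2 ratio was -0.08 for H2B, 0.02 for H2A, 0.46 for H1, 0.83 for H4 and 1.36 for H3. With only the copies at a mean of at least 10 reads, the interval of the sum over all types included a ratio of 1. The part of dividing tissue in these values was not tested. All 7 imaginal disc markers lay above the median of all genes and 3 of 4 neuroblast markers below it, with sums of 120 and 111 TPM for the disc list and 12.8 and 13.5 TPM for the neuroblast list. Of 4 salivary gland glue genes, 2 were called lower in replicate 1, against 1.32% of all genes, and the list summed to 42702 and 86125 TPM in replicates 1 and 2.

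Of 8 genes for centromere and sperm chromatin, Mst77F, tHMG1 and tHMG2, proteins of spermatid chromatin, stood highest, at 56.5 and 58.5, 49.6 and 58.0, and 36.8 and 39.7 TPM in replicates 1 and 2. The protamine genes ProtA and ProtB stood at 23.6 and 27.5 and at 27.8 and 29.4 TPM. Each pair, tHMG1 with tHMG2 and ProtA with ProtB, is made of paralogs, so the division within it is uncertain. The lowest were cal1 at 6.77 and 6.84 TPM and cid, the centromeric H3 variant, at 1.92 and 2.42 TPM. The level of cid was below that of all listed H3 copies in replicate 1, at 3.10 TPM for H3, and above it in replicate 2, at 1.19 TPM for H3.

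**Figure D5:**
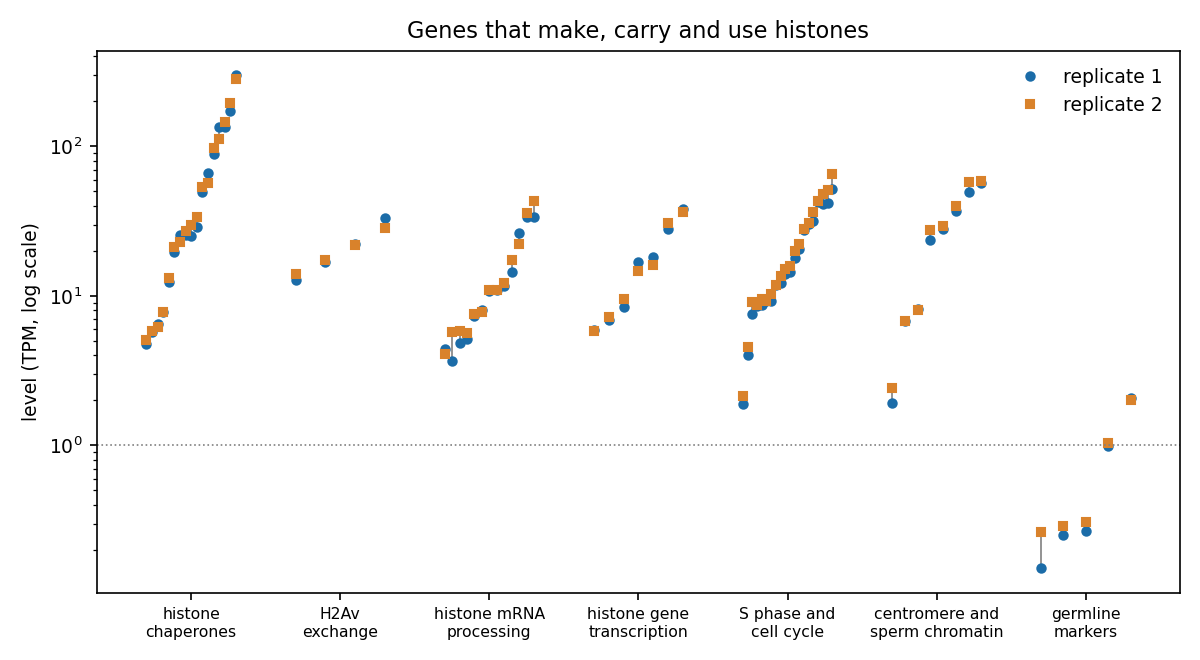
Level in TPM (log axis) of each gene of 6 lists and of the germline markers in replicate 1 (circles) and replicate 2 (squares), ordered within a list by mean level; the dotted line marks 1 TPM. All 69 genes of the first 6 lists lie above 1 TPM in both libraries, and 1 of 5 germline markers does.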

How the data were processed

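Whole larvae were sequenced in 2 libraries, with total RNA from Trizol and Illumina library preparation, per the labels' protocols. The authors deposited TPM and estimated counts per FlyBase transcript, with full and effective lengths, per the file headers. Tools named, with no role, in the submitters' processing notes are STAR 2.5.2, HTSeq 0.6.1, bcl2fastq 2.18.0.12, Picard and FastQC. Quantifier, build and annotation: not given in the sources used here. Fractional counts show that reads were shared between similar transcripts.

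Transcripts were matched by identifier to Ensembl release 115 (BDGP6), 29992 of 30119, and summed per gene and per histone type. The 127 others held 0.0981% and 0.110% of the reads. Coordinates are 1-based positions of that annotation. No sequence was used. Counts were rounded and scaled with TMM in edgeR 4.0.16 (R 4.3.3). Log2 ratios add 0.5 reads. Intervals are at the 95% level and cover counting error only, since no molecular identifiers are described and reads are then not independent molecules. Calls were tried on simulated Poisson counts for the 14001 genes, without read sharing between copies or spread between replicates. There, 21 of 11997 unchanged genes were called, and 100 of 100 at 3-fold. The simulation checks the rule under its own assumptions only, and not the calls on single copies. Alternatives were other units, scalings including DESeq2 1.42.0 size factors, filters, thresholds and single libraries.

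Members and lists were chosen with earlier results of these data known. Named were all single genes; per type the highest and lowest copies and those at 0 reads in one library and at least 100 in the other; and per list the 3 highest and 2 lowest genes and any called. Further names were chosen after their values were seen. Salivary gland and fat body markers were also listed, all 8 above 1 TPM in both libraries.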

Additional observations from a re-analysis of the deposited data

How the results depend on the processing

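With 1 group there is no test, and few reads limit the array types, above all H3 with 42 and 21. No paired analysis was possible because the libraries form a single group. In CPM, the array copies summed to 18.9 and the 4 abundant variants to 1502, against 45.8 and 1780 TPM. The variants came to 1873 with reads per full length and to 1866 TPM without rRNA entries. The variant share of the H2A class was 95.1% with reads per full length and 97.4% in reads, against 94.2%, and that of the H3 class 99.9% in reads, against 99.7%. With library size alone, the ratio of all array copies turned to 0.992, against 1.13, and that of H2A to 0.892, against 1.02. That scaling moves every log2 ratio by -0.19, and the median of all genes to -0.21, so the position of the histone sums among all genes is the same. None of the 20 S-phase genes was above 0 with either TMM or library size alone, and 1 was with DESeq2 size factors. Genes called apart were 383 above a mean of 100 reads, where fewer are tested, 1490 at 1.5-fold and 203 at 4-fold, against 662. With library size alone, 394 were higher and 276 lower in replicate 1, against 501 and 161. Called copies were 2 of 4 tested at a mean of at least 100 reads, against 6 of 11. Copies at the detection threshold in both libraries numbered 6 at 0.5 TPM and 1 at 5 TPM, against 3, and from 5 to 7 in single libraries. The coefficient of variation over listed copies was 251% in reads, against 257% in TPM. Ratios of single transcripts and copies under other scalings were added after seeing the data. With library size alone, 3 turned direction, to 0.925 for the long His3.3B form, 0.893 for the third of its transcripts and 0.974 for His1:CG33858. The third His4r transcript fell to 1.76 and lost its call, and the second His3.3A transcript gained one at 0.453. Levels of single genes or types moved by 1 SD or more in 20 cases, 9 of them in CPM, with each gene or type counted once per setting. Levels of pseudogenes and of marker lists were not recomputed.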
